A study of Mus musculus with 9 samples.

Results

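The genes described here are 9 genes of retinoid metabolism and signalling, found by their symbols among the 43346 genes of the deposited table: Aldh1a1, Aldh1a2, Aldh1a3, Rbp4, Crabp1, Crabp2, Rarb, Cyp26b1, and Rarres2. Their transcripts were measured by RNA-Seq of polyadenylated RNA from sorted lung fibroblasts of aged mice, in 4 aged sham and 5 aged bleo libraries. All mice were male Col1a1-GFP transgenics on the FVB background, aged 18 months by the protocol text and 72 weeks by the age label. They received a single intratracheal dose, of saline in the aged sham group and of bleomycin, which injures the lung and is followed by fibrosis, in the aged bleo group, and the lungs were taken 30 days later. The sorted cells of both groups were GFP+ and negative for CD45, CD31, and EpCAM. GFP is driven by a Col1a1 promoter, so the sort selects, in both groups, cells in which that promoter was active.

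Retinoids are derivatives of vitamin A. Retinol travels in blood bound to retinol binding protein and is oxidized in cells first to retinaldehyde and then, by the retinaldehyde dehydrogenases, to retinoic acid. Retinoic acid binds nuclear receptors (RAR paired with RXR) that sit on response elements of target genes, and CYP26 enzymes break it down. In the lung it is known for its part in branching and in the formation of alveoli, and lipid-storing interstitial fibroblasts hold retinyl esters.

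The receptor gene Rarb is itself a textbook target, through a pair of direct repeats just before its start. The 250 bases before the start are shown because among the windows at hand for these genes only this one held such an element. They are the sequence of chr14:16575477-16575726 (GRCm38, minus strand, from RefSeq), with the half-sites in capitals.
Rarb: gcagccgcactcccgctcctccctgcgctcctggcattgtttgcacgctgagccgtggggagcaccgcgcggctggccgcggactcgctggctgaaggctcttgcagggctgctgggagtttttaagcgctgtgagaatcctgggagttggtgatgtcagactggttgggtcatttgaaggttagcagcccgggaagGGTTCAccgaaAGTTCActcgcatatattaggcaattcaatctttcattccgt
The element spans positions -53 to -37 from the start. The half-sites searched were AGGTCA or AGTTCA, as well as GGGTCA or else GGTTCA, in any pair on the same strand with 5, 2, or 1 bases between them, on either strand, in windows from 250 bases before to 50 after a gene start. Of 32851 mouse windows, 193 (0.588%) held such a pair, and 32 (0.0974%) held one with 5 bases between. Windows were at hand for 6 of the 9 genes (Aldh1a1, Aldh1a2, Rbp4, Crabp1, Rarb, and Cyp26b1), and for 39 of the other pathway genes, of which Cyp26a1 and Bco1 held a pair. The elements of Rarb and Cyp26a1, which encodes another retinoic acid hydroxylase, are shown side by side because they share the spacing and the second half-site.
Rarb: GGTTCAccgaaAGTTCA
Cyp26a1: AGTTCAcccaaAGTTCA
The Cyp26a1 element lies on the strand opposite to the gene, at chr19:37697776-37697792. A match is a description of letters and not evidence of binding. In these libraries Rarb was at 3.81 to 10.6 CPM, whereas Cyp26a1 averaged 0.185 ± 0.0567 CPM in aged sham (SD, n = 4) and 0.126 ± 0.0648 CPM in aged bleo (SD, n = 5), below the count filter.

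Levels are given as CPM, the read counts scaled to a common library size after TMM normalization. Genes that reached a mean of 25 counts over the libraries were compared by edgeR's quasi-likelihood test, and a gene was called changed with a Benjamini-Hochberg adjusted p-value (FDR) under 0.10 and a fold change over 1.5. All 9 genes passed the count filter, Crabp1 only through aged bleo, with a mean count of 5.25 in aged sham and 110.6 in aged bleo. Of the 9, 5 fell (Aldh1a2, Aldh1a3, Rbp4, Rarb, and Rarres2), 2 rose (Crabp1 and Crabp2), and 2 were not called (Aldh1a1 and Cyp26b1). Across the 16877 genes tested, 23.8% were called, 12.3% higher and 11.5% lower in aged bleo. Every aged bleo library was below every aged sham library for 4 of the 9 genes (16.1% of all genes tested) and above for 2 (16.1%), so the groups did not overlap in 6 genes (32.2% of all genes tested). Their median log2 fold change was -0.64, against 0.01 over all genes tested. In RNA of sorted cells as a whole, fewer cells of a kind and less RNA per cell cannot be told apart.

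**Figure D1:**
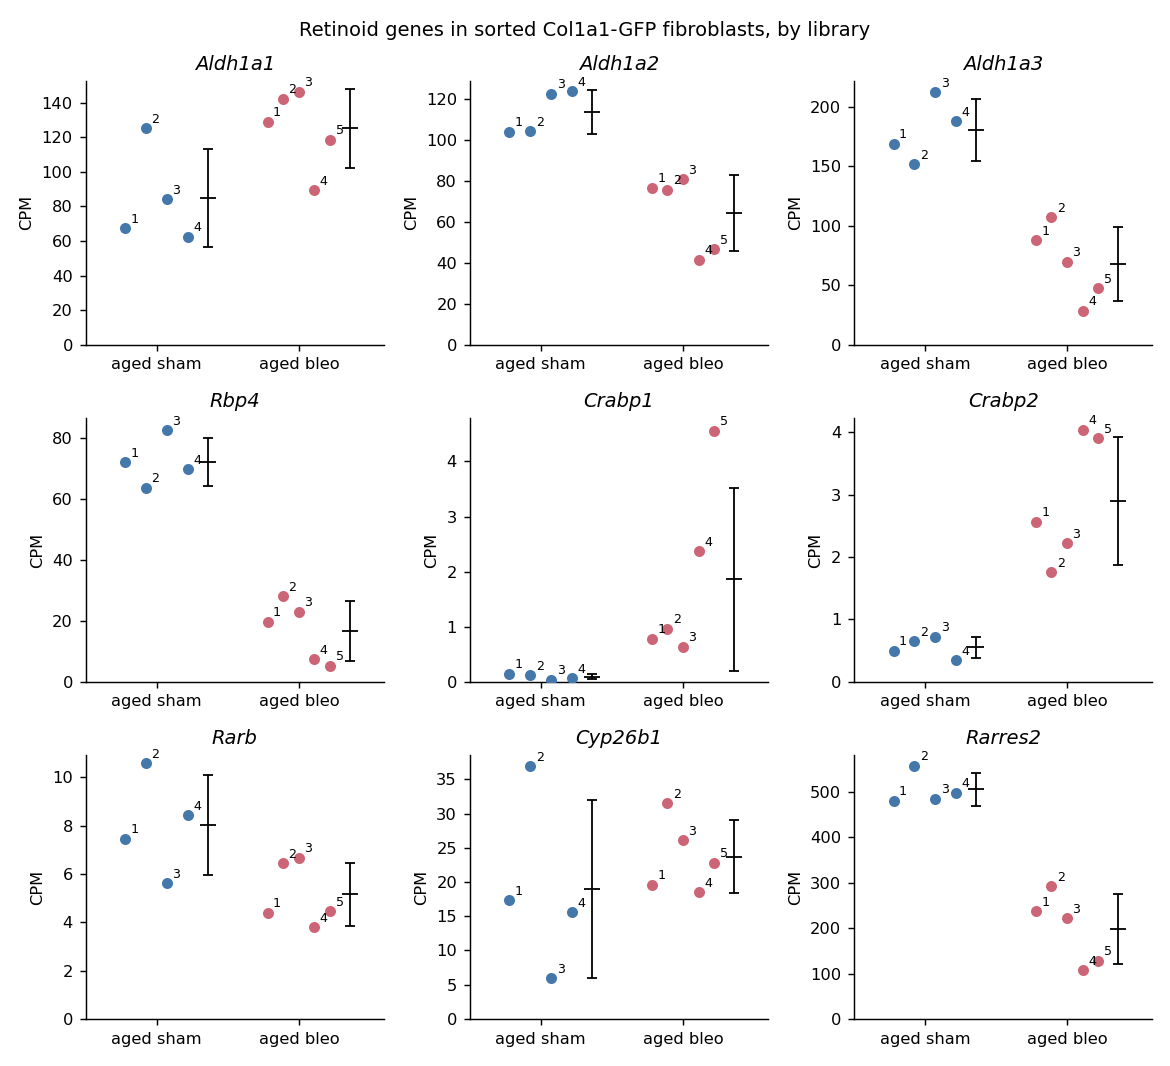
Levels of the 9 retinoid genes in each library, as TMM-normalized CPM on axes that start at 0. Each point is 1 library, numbered by its replicate, and the black mark beside each group is the mean with its SD (n = 4 aged sham, n = 5 aged bleo). The groups do not overlap for Aldh1a2, Aldh1a3, Rbp4, Crabp1, Crabp2, and Rarres2, and they overlap for Aldh1a1, Rarb, and Cyp26b1.

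The libraries held 49921946 to 68260600 counts. Collagen genes, of which Col1a1 was itself the basis of the sort, and Pdgfra marked the sorted cells as fibroblasts. The 6 fibroblast markers summed to 16864 to 21535 CPM in aged sham and 50491 to 69342 CPM in aged bleo. Of the 6, 4 rose (Col1a1, Col1a2, Col3a1, and Pdgfrb). Pdgfra averaged 912 and 676 CPM in the sham and bleo groups and Lum 700 and 619 CPM, and neither was called. Endothelial and epithelial markers were low, with 15.0 to 24.2 CPM over all libraries for 6 endothelial markers and 8.69 to 80.7 CPM for 7 epithelial markers. The genes of the sort markers were themselves present, as Pecam1 (CD31) averaged 6.12 and 4.34 CPM in the sham and bleo groups, Epcam 0.593 and 0.668 CPM, and Ptprc (CD45) 87.0 ± 59.1 and 65.0 ± 66.3 CPM (SD, n = 4 and n = 5). The sum of 7 macrophage markers was 138 to 272 CPM in aged sham against 450.4 to 1425 CPM after bleomycin, and 4 of the 7 rose. The 5 pan-leukocyte markers were highest in aged sham 4 (333 CPM) and aged bleo 4 (508 CPM), and ranged from 89.4 to 177 CPM elsewhere. Of 7 smooth muscle and pericyte markers 2 fell by edgeR, and DESeq2 called 4. By edgeR 5 of them had an unadjusted p under 0.05, in both directions. The sum of 7 neutrophil markers was 171 to 1030 CPM in aged sham against 98.0 to 926 CPM after bleomycin, highest in aged sham 4 and aged bleo 4. None of these 7 was called by edgeR, DESeq2, or limma, or had an unadjusted p under 0.05 by edgeR. Without aged sham 4 and aged bleo 4, 6 of the 9 retinoid genes were called, and Rarb was not.

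Of the retinaldehyde dehydrogenases, which make retinoic acid, Aldh1a2 and Aldh1a3 fell after bleomycin, and Aldh1a1 was not called. Aldh1a3 (ENSMUSG00000015134, chromosome 7, 66390892 to 66427517, GRCm38 as for all positions here) was at 169, 152, 213, and 188 CPM in aged sham 1 to 4 and at 87.8, 107, 69.8, 28.5, and 47.7 CPM in aged bleo 1 to 5. Every aged bleo library was below every aged sham library, with aged bleo 4 lowest. Its mean fell from 180 ± 26.1 CPM (SD, n = 4) to 68.2 ± 31.3 CPM (SD, n = 5), a log2 fold change of -1.40 (SE 0.33, FDR 0.0112).

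Aldh1a2 (ENSMUSG00000013584, chromosome 9, 71215789 to 71296243), the main retinoic acid synthesizing enzyme of embryonic mesenchyme, was at 104, 104, 122, and 124 CPM in aged sham and at 76.7, 75.7, 80.8, 41.5, and 46.7 CPM in aged bleo. Here too the groups did not overlap, and aged bleo 4 and 5 stood below the other 3 injured libraries. The log2 fold change was -0.82 (SE 0.20, FDR 0.0146). Aldh1a2 is also a known gene of mesothelium. The sum of 8 mesothelial markers was 30.0 to 87.2 CPM in aged sham, against 37.2 to 133 CPM after bleomycin, and none of the 8 was called by edgeR (0 with an unadjusted p under 0.05, and 1 called by DESeq2). In the libraries where they were highest, aged sham 1 and aged bleo 3, Aldh1a2 was at 104 and 80.8 CPM.

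Aldh1a1 (ENSMUSG00000053279, chromosome 19, 20601961 to 20643462) was at 67.5, 125, 84.1, and 62.5 CPM in aged sham and at 129, 142, 146, 89.4, and 119 CPM in aged bleo. Of the injured libraries, 4 stood at or above 119 CPM, but aged sham 2 lay among them. Its log2 fold change of 0.56 (SE 0.22, FDR 0.0754) was under the fold change threshold. Without aged sham 2 it was 0.81 (FDR 0.0150) and without aged bleo 4 it was 0.65 (FDR 0.0391), past both thresholds. Without any other single library it was 0.44 to 0.58 with an FDR of 0.111 to 0.178, past neither threshold. Few reads were assigned to Aldh1a7, a close copy of Aldh1a1, at 0.105 ± 0.110 CPM in aged sham (SD, n = 4) and 0.182 ± 0.107 CPM in aged bleo (SD, n = 5). Reads that match both genes may not appear in these counts, so the number shared cannot be told.

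To compare genes with each other, the deposited FPKM values, which are scaled to gene length, were used. In aged sham, the summed FPKM of the 3 dehydrogenases was 48.3, 59.6, 59.8, and 51.6, and in aged bleo it was 50.05, 52.9, 50.9, 30.5, and 38.4. Of the injured libraries, aged bleo 4 and 5 lay below the aged sham range. The makeup of the sum differed between the groups. Aldh1a1 supplied 28.5%, 43.6%, 29.0%, and 24.2% of it in aged sham and 54.3%, 55.0%, 58.4%, 64.0%, and 65.1% in aged bleo, with no overlap. The share of Aldh1a3 was 23.5% to 32.7% in aged sham and 9.08% to 18.4% in aged bleo, and that of Aldh1a2 was 32.9% to 43.4% and 23.2% to 29.3%. No test was run on these shares.

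**Figure D2:**
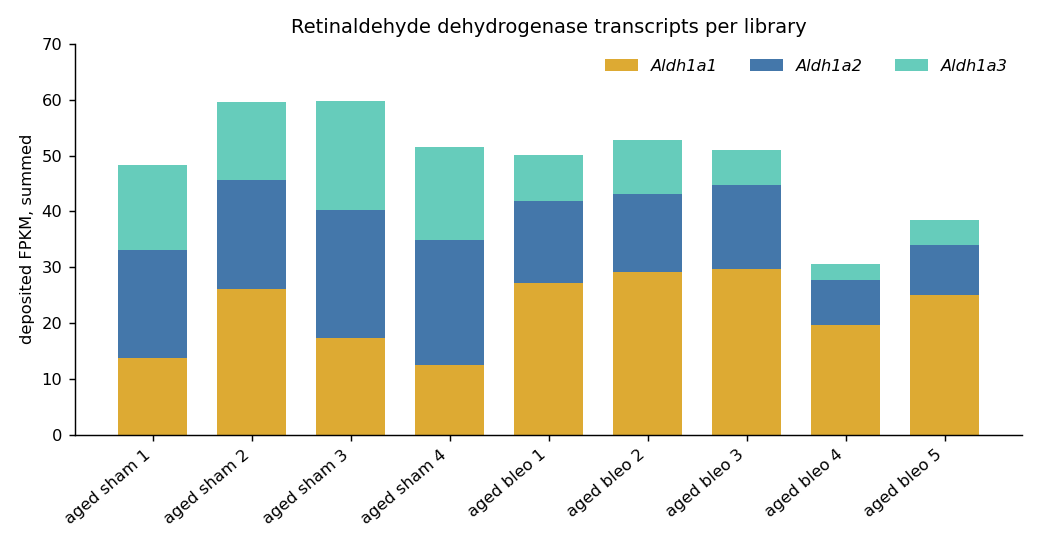
Deposited FPKM of the 3 retinaldehyde dehydrogenase genes, stacked for each library. The Aldh1a1 part is the largest in all 5 aged bleo libraries (54.3% to 65.1% of the bar) and in aged sham 2 (43.6%), and Aldh1a2 is the largest in the other 3 aged sham libraries.

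Rbp4 (ENSMUSG00000024990, chromosome 19, 38116620 to 38125321), which encodes the carrier of retinol in blood, had the largest fall among the 5 of the 9 genes that fell. Its level was 71.9, 63.6, 82.5, and 69.6 CPM in aged sham and 19.7, 28.0, 22.9, 7.30, and 5.33 CPM in aged bleo. All injured libraries were below all uninjured ones, and the spread within aged bleo was wide, with the highest library 5.26 times the lowest, against 1.30 times in aged sham. The log2 fold change was -2.11 (SE 0.44, FDR 0.00721), and with each library left out in turn it stayed between -2.38 and -1.88. By FPKM, Rbp4 ranked next to Rarres2 among the 9 genes in aged sham (23.2 ± 2.64, SD, n = 4) and below all 3 dehydrogenases in aged bleo (5.46 ± 3.16, SD, n = 5).

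The cellular retinoic acid binding proteins, which hold retinoic acid in the cytoplasm, went the other way from a very low level. Crabp2 (ENSMUSG00000004885, chromosome 3, 87948666 to 87953376), which carries retinoic acid to its receptors, was at 0.501, 0.650, 0.721, and 0.343 CPM in aged sham and at 2.57, 1.76, 2.22, 4.04, and 3.90 CPM in aged bleo. Every injured library exceeded every uninjured one, and aged bleo 4 and 5 were highest. The log2 fold change was 2.38 (SE 0.33, FDR 0.00106).

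Crabp1 (ENSMUSG00000032291, chromosome 9, 54764748 to 54773110) had only 9, 7, 2, and 3 counts in aged sham and 42, 54, 34, 174, and 249 counts in aged bleo, or 0.635 to 4.56 CPM. The groups were again apart, and aged bleo 4 and 5 were again the highest. Summed over libraries, 553 counts stood against 21, a ratio of 20.0 once scaled to library size (95% exact Poisson interval 12.9 to 32.6, counting error only). The fitted log2 fold change was 4.29 (SE 0.76, FDR 0.00338), and without aged bleo 5 it was 3.65 (FDR 0.00369). At so few counts in aged sham its size also depends on the fit. Even after bleomycin both genes stayed low beside the dehydrogenases, with 1.01 ± 0.903 FPKM for Crabp1 and 0.949 ± 0.358 FPKM for Crabp2 (SD, n = 5).

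Rarb (ENSMUSG00000017491, chromosome 14, 16430842 to 16575472), the gene whose element is printed above, encodes retinoic acid receptor beta. It was at 7.46, 10.6, 5.63, and 8.43 CPM in aged sham and at 4.39, 6.45, 6.67, 3.81, and 4.47 CPM in aged bleo. The groups overlapped, since aged sham 3 was below aged bleo 2 and 3. It passed the thresholds narrowly, with a log2 fold change of -0.64 (SE 0.23, FDR 0.0530). The call was lost without aged sham 2 (-0.48, FDR 0.155), aged sham 4 (-0.61, FDR 0.111), aged bleo 1 (-0.59, FDR 0.103), aged bleo 4 (-0.56, FDR 0.0810), or aged bleo 5 (-0.59, FDR 0.109). The counts are per gene and do not separate the transcript that starts beside the element from transcripts with other starts.

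Cyp26b1 (ENSMUSG00000063415, chromosome 6, 84571414 to 84593908), whose product breaks down retinoic acid, was at 17.3, 37.0, 5.92, and 15.6 CPM in aged sham and at 19.6, 31.5, 26.1, 18.5, and 22.8 CPM in aged bleo. The aged sham libraries enclosed the whole aged bleo range. The log2 fold change was 0.32 (SE 0.42, FDR 0.582), and it ranged from 0.03 (FDR 0.954) without aged sham 3 to 0.87 (FDR 0.0922), past the thresholds, without aged sham 2. It was the only 1 of the 3 Cyp26 genes that could be tested, as Cyp26a1 and Cyp26c1 were below the count filter.

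Rarres2 (ENSMUSG00000009281, chromosome 6, 48569698 to 48572670), first found as a gene induced by a synthetic retinoid, encodes the secreted attractant chemerin and was the most abundant of the 9 genes by FPKM. Its level was 481, 558, 485, and 498 CPM in aged sham and 238, 292, 222, 108, and 128 CPM in aged bleo. The aged sham libraries were close together, and all aged bleo libraries were below them. The log2 fold change was -1.36 (SE 0.27, FDR 0.00586). The table places the end of Rarres2 over the end of Lrrc61 (48554796 to 48570722), which also fell (log2 fold change -1.26, SE 0.22, FDR 0.00345), and reads in the shared stretch cannot be assigned to either gene with certainty.

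In FPKM, the order in aged sham ran from Rarres2 (299 ± 24.0, SD, n = 4) through Rbp4, Aldh1a2, Aldh1a1, and Aldh1a3 (23.2, 21.04, 17.4, and 16.4) to Cyp26b1 and Rarb (1.64 and 1.11), Crabp2 (0.176), and Crabp1 (0.0477). Neighbours from Rbp4 to Aldh1a3 overlapped between libraries, as did Cyp26b1 and Rarb, and the other neighbours did not. In aged bleo, Rarres2 (119 ± 44.6, SD, n = 5) and Aldh1a1 (26.1) were still apart from the genes next to them. From Aldh1a2 (12.1) down through Aldh1a3, Rbp4, Cyp26b1, Crabp1, Crabp2, and Rarb (0.727), each gene overlapped the next.

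Of 53 other listed genes of the pathway, 39 passed the count filter, 3 rose, 4 fell, and 32 were not called, which is 17.9% called beside 23.8% of all genes tested, with a median log2 fold change of -0.11. The difference between these shares was not tested, and without aged bleo 4 the number called was 10 of 39, beside 3883 of all 16877 genes tested.

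Among 8 genes of uptake and storage, 2 of the 6 tested rose. Stra6l, which encodes a cell surface receptor for retinol binding protein, was at 0.549, 0.530, 0.253, and 0.323 CPM in aged sham and at 1.28, 2.31, 1.59, 2.25, and 1.45 CPM in aged bleo (log2 fold change 2.09, SE 0.31, FDR 0.00135). Its mean count was 23.5 in aged sham and 105.6 in aged bleo, so it passed the count filter only through aged bleo. Stra6, the main such receptor, was at 10.4, 2.58, 2.26, and 2.90 CPM in aged sham and at 10.2, 10.1, 20.4, 7.70, and 7.40 CPM in aged bleo. Stra6 overlapped between groups only through aged sham 1. Its log2 fold change was 1.30 (SE 0.51, FDR 0.0773), and without aged sham 1 it was 2.11, whereas the call was lost without any one of aged sham 2, 3, or 4 (1.10, 1.08, and 1.14) or aged bleo 1 or 3 (1.33 and 0.96). Ttr, the partner of retinol binding protein in blood, had no count in any library, which allows at most 0.0605 CPM.

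Of 18 genes that convert retinol and retinaldehyde, 12 were tested and 2 fell. Adh1, an alcohol dehydrogenase that oxidizes retinol, was at 183, 230, 194, and 180 CPM in aged sham and at 98.6, 121, 99.7, 52.9, and 46.4 CPM in aged bleo (log2 fold change -1.23, SE 0.27, FDR 0.00873). Adh7 was at 10.6 ± 2.44 CPM (SD, n = 4) and 5.16 ± 1.79 CPM (SD, n = 5), and aged sham 2 overlapped with aged bleo (log2 fold change -1.04, SE 0.28, FDR 0.0191). Rdh10, the dehydrogenase that supplies retinaldehyde in the embryo, was at 52.3 ± 28.1 CPM (SD, n = 4) and 59.9 ± 16.3 CPM (SD, n = 5) and was not called (log2 fold change 0.19, SE 0.32, FDR 0.666).

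Fabp5, a fatty acid binding protein that can also carry retinoic acid, was the only 1 of 3 breakdown and delivery genes to be tested. It rose from 8.33, 6.59, 5.20, and 8.75 CPM in aged sham to 12.1, 12.8, 14.4, 26.2, and 30.3 CPM in aged bleo (log2 fold change 1.41, SE 0.32, FDR 0.00987). Like the Crabp genes, it was highest in aged bleo 4 and 5.

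None of the 4 RAR and RXR genes tested beside Rarb was called by edgeR, DESeq2, or limma, although 3 had an unadjusted p under 0.05 by edgeR, since their fold changes were under 1.5. Rarg, the most abundant of them by FPKM, was at 140 ± 31.3 CPM in aged sham (SD, n = 4) and 107 ± 14.3 CPM in aged bleo (SD, n = 5) (log2 fold change -0.39, SE 0.15, FDR 0.0729), and Rara was at 39.5 ± 2.44 and 47.6 ± 4.51 CPM (log2 fold change 0.27, SE 0.08, FDR 0.0320). The 6 coregulator genes were likewise not called by any of these tools (3 with an unadjusted p under 0.05 by edgeR).

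Of 10 genes known to be induced by retinoic acid, 7 were tested and 1 fell. Hic1, a repressor expressed in quiescent mesenchyme, was at 100.2, 142, 105, and 115 CPM in aged sham and at 68.03, 98.4, 74.5, 57.7, and 41.9 CPM in aged bleo (log2 fold change -0.76, SE 0.22, FDR 0.0246). Tgm2, a transglutaminase and by FPKM the most abundant of these genes, was at 344 ± 28.7 CPM (SD, n = 4) and 443 ± 76.4 CPM (SD, n = 5), under the fold change threshold (log2 fold change 0.36, SE 0.14, FDR 0.0633).

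The receptors of chemerin, the product of Rarres2, differed from each other. Gpr1 fell from 3.46, 2.17, 3.00, and 4.44 CPM in aged sham to 0.298, 0.515, 0.430, 0.205, and 0.238 CPM in aged bleo, with no overlap (log2 fold change -3.27, SE 0.32, FDR 1.78e-04). Its mean count was 179 in aged sham and 19.2 in aged bleo, so it passed the count filter only through aged sham. Cmklr1, the signalling receptor and the most abundant of the 3 by FPKM, was at 215 ± 38.1 CPM (SD, n = 4) and 212 ± 58.7 CPM (SD, n = 5), and its log2 fold change of -0.02 (SE 0.21, FDR 0.948) changed sign when some single libraries were left out. Ccrl2 was not called.

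**Figure D3:**
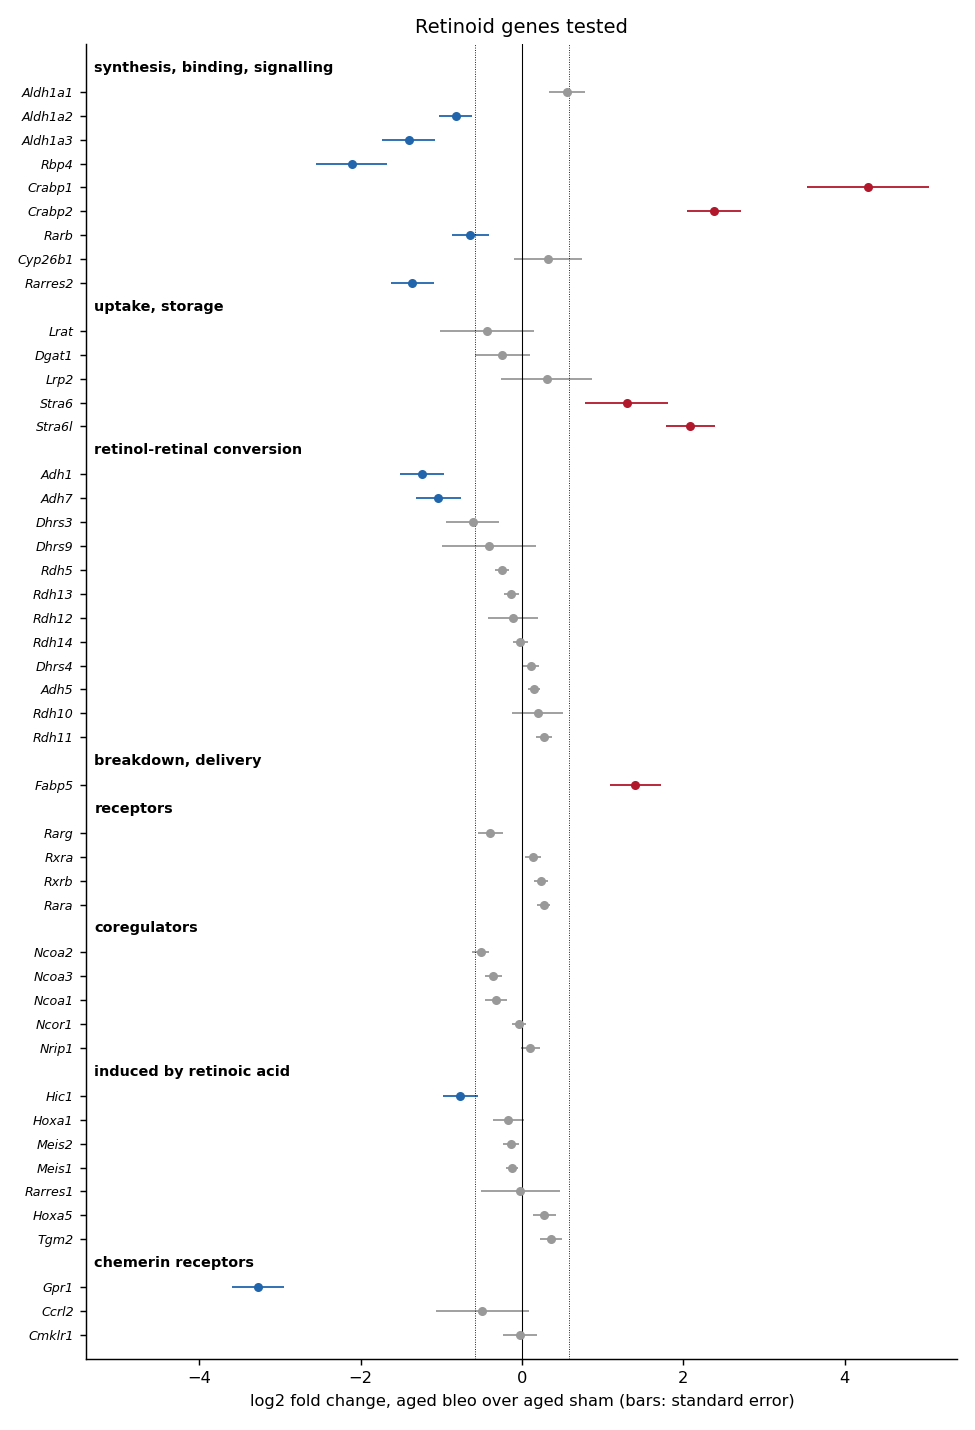
Log2 fold changes of aged bleo over aged sham for the 9 retinoid genes and 37 of the 39 other pathway genes tested, with bars for the standard error (n = 4 aged sham, n = 5 aged bleo). Red genes rose and blue genes fell (FDR under 0.10 and a fold change over 1.5, dotted lines), and grey genes were not called. Crabp1 (4.29) is the highest and Gpr1 (-3.27) the lowest of the genes plotted, and each passed the count filter only through the group in which it is high.

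The injured libraries did not move alike. Over all genes tested, aged bleo 4 and 5 differed from aged bleo 1 to 3 by 158 to 468 times the counting noise (chi-square per degree of freedom). Pairs among aged bleo 1 to 3 differed by 34.1 to 76.3 times, and aged bleo 4 and 5 from each other by 107 times. Aged bleo 4 and 5 were the 2 lowest of the injured libraries for 5 of the 9 genes (Aldh1a1, Aldh1a2, Aldh1a3, Rbp4, and Rarres2) and the 2 highest for 2 (Crabp1 and Crabp2), an order not counted over all genes tested. Markers of adventitial fibroblasts, the cells of the vessel and airway sheath, followed the same order. All 7 of these markers fell, and their sum was 17533 to 20074 CPM in the uninjured libraries, 7412 to 10441 CPM in aged bleo 1 to 3, and 2974 and 3580 CPM in aged bleo 4 and 5. Of 7 alveolar fibroblast markers, 3 fell and 1 rose, and their sum went from 2583 to 4096 CPM in aged sham to 837 and 1056 CPM in aged bleo 4 and 5 and 1772 to 2542 CPM in the other injured libraries. Most of that difference was Inmt, a methyltransferase gene, at 1644 to 2605 CPM in aged sham and 202 to 1067 CPM after bleomycin. The other 6 alveolar markers summed to 829.8 to 1491 CPM in aged sham and 585 to 1475 CPM after bleomycin, and the groups overlapped. The macrophage markers were likewise highest in aged bleo 4 (1425 CPM) and 5 (814 CPM). The part of these cell types in the retinoid gene differences was not tested.

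**Figure D4:**
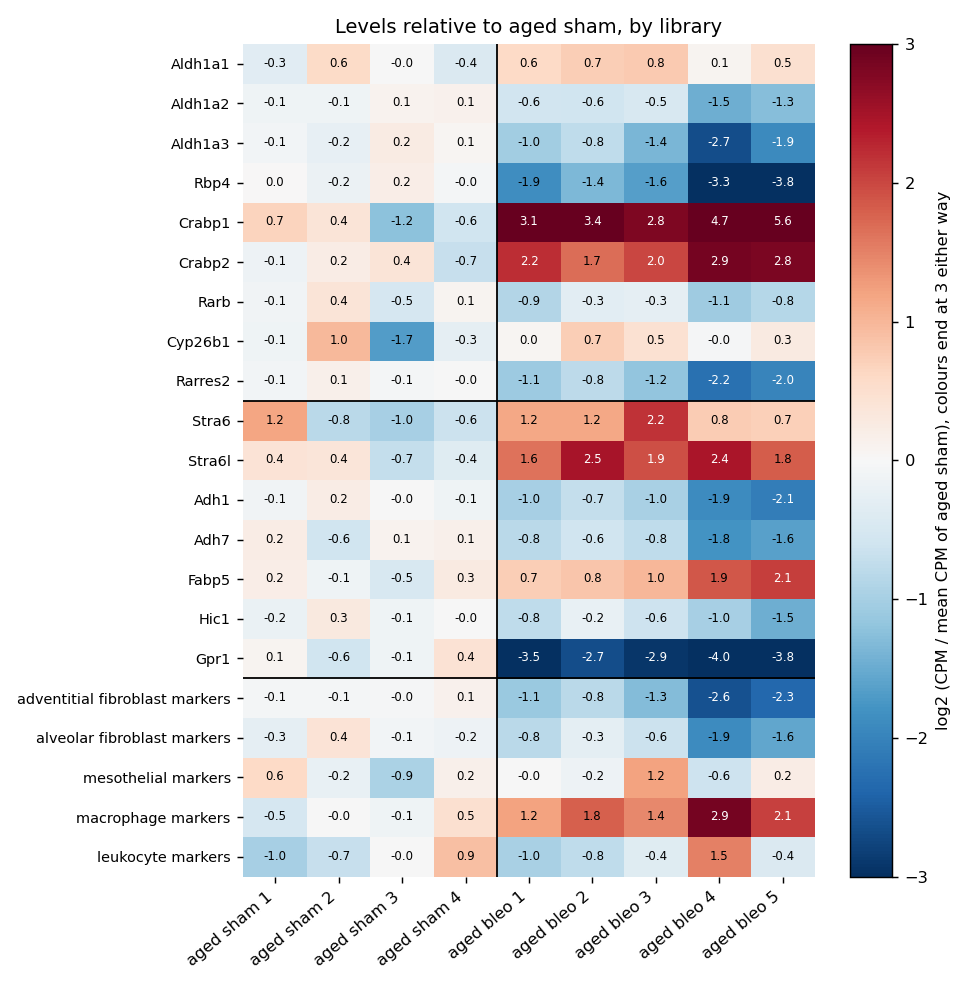
Levels in each library relative to the mean of aged sham, as log2 ratios of CPM, for the 9 retinoid genes (top), the 7 other pathway genes called (middle), and the summed CPM of 5 marker lists (bottom). Blue is lower and red higher than the aged sham mean. Rbp4, Aldh1a3, Rarres2, Adh1, and the adventitial markers are lowest in aged bleo 4 and 5, where Crabp1, Crabp2, and Fabp5 are highest.

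For each called gene, the 3 tested genes with the closest profile were found by the root mean square difference of centred log2 CPM over the 9 libraries. For Rbp4 they were Wnt2b, Dact2, and Dpep1 (0.169 to 0.186), for Rarres2 Chst10, Syp, and Vwa1 (0.0551 to 0.0793), and for Aldh1a3 Nudt12, Galnt16, and Gm16897 (0.0796 to 0.124). For Aldh1a2 they were Tnk1, St3gal2, and Srpx (0.0922 to 0.116), and for Rarb Gstm7, 1110018N20Rik, and Cxxc1 (0.138 to 0.181). The profiles nearest to Crabp2 were those of Enpp1, Adap2os, and Dcbld1 (0.208 to 0.270), and the profiles nearest to Crabp1 were less close, those of 3300005D01Rik, Nags, and Moxd1 (0.429 to 0.574). Wnt2b, which encodes a Wnt ligand, fell with a log2 fold change of -2.25 (SE 0.45, FDR 0.00576), and Enpp1, which encodes a pyrophosphate-forming enzyme, rose with 2.45 (SE 0.21, FDR 7.82e-05).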

How the data were processed

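The authors deposited 1 table with whole-number read counts for 43346 genes in each of 9 libraries, not normalized, beside FPKM. In the deposited FPKM, the divisor for library size came to 2.27 to 2.42 times the summed counts. The submitters' processing notes name bcl2fastq, STAR 2.5.2b, Subread, and featureCounts with GRCm38. Of 42462 gene identifiers shared with GENCODE M21, 78.8% had the same position. Whether counting used strand is not given in the sources used here.

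Libraries were grouped by their labels. The labels do not say whether lungs were pooled, so p-values measure the spread between libraries. Pairs of one group differed by 30.9 to 468 times the counting noise (chi-square per degree of freedom), so none was a duplicate. Genes that reached a mean of 25 counts were tested with edgeR 4.0.16 (TMM, glmQLFTest) in R 4.3.3, with p-values adjusted over all genes tested. Standard errors came from the fold change and its F statistic, and log2 CPM used a prior count of 2. The script was tried on simulated counts. Other settings tried were DESeq2 1.42.0, limma 3.58.1 on log2 CPM and on log2(FPKM + 0.1) and log2(FPKM + 1), other normalizations, filters, and thresholds, a replicate block, libraries left out, and only the libraries whose names end in 4. Leaving out aged bleo 4 and aged sham 4 was chosen after seeing the data.

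The genes and lists were chosen with earlier results of these data known. Named are the 9 genes, the other pathway genes called and the most abundant of each list, the 3 nearest profiles of each called gene, and marker genes within their lists. Lrrc61, Aldh1a7, Cyp26a1, Cyp26c1, Bco1, Ttr, Ccrl2, Rdh10, Rara, Lrat, Dhrs3, Lrp2, and Rarres1 are named besides, after their values were seen. Rbpr2 was matched as Stra6l. The values of some listed genes are not reported here. The limit for a gene without counts is 3 counts, and like the Poisson interval it covers counting error only.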

Additional observations from a re-analysis of the deposited data

Results flagged for a closer look

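Stra6 stood out in 1 library of each group. Aged sham 1 had 10.4 CPM, with the nearest other aged sham library at 2.90 CPM, and aged bleo 3 had 20.4 CPM, with the nearest other aged bleo library at 10.2 CPM. Both gaps were over Dixon's 95% critical value, in 38 groups looked at, of which chance flags about 1 in 20. The same libraries had the highest summed level of the 8 mesothelial markers in their groups (87.2 and 133 CPM), and the highest levels of Lrp2 (9.32 and 19.3 CPM), Rdh10 (93.5 and 86.7 CPM), and Rarres1 (14.8 and 14.0 CPM). Lrp2, Rdh10, and Rarres1 are named here because they were seen to be highest in these libraries. Aged sham 1 was the highest aged sham library for 14 of the 48 retinoid genes tested (29.2%), against 29.8% of all genes tested. The like share for aged bleo 3 was not counted. The part of mesothelial cells in the level of Stra6 was not tested.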

How the results depend on the processing

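Aldh1a2, Aldh1a3, Rbp4, Crabp2, and Rarres2 kept their direction and their call in all 20 alternative fits, and Crabp1 in the 19 that tested it, since a minimum of 10 counts in every library left it out. Of the 9 genes, 5 to 8 were called under every setting, and 6 to 8 when single libraries were left out. The 5 were those under the stricter thresholds (FDR 0.05, fold change 2), which Aldh1a2 and Rarb did not pass. Rarb lost its call in 9 of the 20 fits and Stra6 in 8, and Aldh1a1 passed the thresholds in 6. Over all genes, 4022 were called, against 1785 by limma on log2(FPKM + 1), 2158 with stricter thresholds (FDR 0.05, fold change 2), and 6171 among the libraries whose names end in 4. What these endings mean is not stated. All aged sham libraries and aged bleo 4 share the ending 4, so that fit assumes that the lone injured library varies like the aged sham libraries. The other aged bleo libraries have other endings, so in the main comparison the ending and the treatment cannot be fully told apart. Of the other pathway genes, 3 were called on log2(FPKM + 1), where the pseudocount shrinks the change of genes with low FPKM, against 7. The direction of Cyp26b1, which was not called, reversed among the libraries whose names end in 4 (-0.0252). Cmklr1 reversed under the replicate block (0.0274) and without aged bleo 4 and aged sham 4 (0.0084), passed the thresholds among the libraries whose names end in 4 (-0.59, FDR 0.0824), and ranged from -0.16 to 0.10 when single libraries were left out. The causes were not tested. Same-numbered libraries of the groups deviated together only weakly (correlations 0.0922, 0.0623, -0.13, and 0.33). Among the 4 aged sham libraries, only aged sham 4 matched its own number best. Whether same-numbered libraries shared more than a number cannot be told from these correlations. Aged bleo 5 has no aged sham library of its number, so under the replicate block it adds nothing to the comparison of the groups. With that block 3536 genes and 7 of the 9 retinoid genes were called. Aldh1a1 (log2 fold change 0.61, FDR 0.0332) was gained and Rarb (-0.60, FDR 0.133) was lost. The log2 fold change of Crabp1, which had 2 to 9 counts per aged sham library, was 3.52 under the block and 0.84 on log2(FPKM + 1), against 4.29. Without aged bleo 5, where Crabp1 was highest, the fit without a block gave 3.65.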

Other observations

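Among the uninjured libraries, aged sham 2 had the highest level of 21 of the 48 retinoid genes tested (43.8%), against 26.9% of all genes tested. They included 4 of the 9 genes described above, Aldh1a1, Rarb, Cyp26b1, and Rarres2, as well as Lrat (96.3 CPM, against 19.3 to 28.9 CPM in the other aged sham libraries), which makes retinyl esters, and Dhrs3 (140 CPM, against 50.4 to 83.2 CPM), which turns retinaldehyde back into retinol. In aged sham 3, by contrast, 3 of the 48 genes (6.25%) were highest, against 17.5% of all genes tested. The alveolar fibroblast markers were also highest in aged sham 2 among the uninjured libraries, at 4096 CPM, of which Inmt made up 2605 CPM. These counts were made after the values were seen and were not tested.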
